A study of Mus musculus with 68 samples.

Results

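Prostates of 7 transgenic mice of the genotype TRAMP +/-, aged 24 to 25 weeks (animals T1 to T7), were compared with prostates of 6 TRAMP -/- mice aged 24 weeks (animals B1 to B6), here called late TRAMP and late wild type. These 13 arrays, 1 per animal, were chosen by genotype and age from 68 arrays of mouse prostate RNA hybridised to Clariom S arrays, and all 22206 target probe sets were compared as transgenic minus non-transgenic. The other arrays carry a deletion of SPARC or of OPN (osteopontin), or come from younger mice. Of these, 7 TRAMP +/- and 4 TRAMP -/- mice of 16 weeks, and 9 SPARC-/- TRAMP +/- mice of 24 to 29 weeks with 4 SPARC-/- TRAMP -/- mice of 25 to 27 weeks, served for 2 further transgene differences. The labels name no treatment. They call every sample a prostate tumour, the TRAMP -/- samples included, and give no histology, strain, lobe or dissection for the animals compared here. The text of the series speaks of adenocarcinoma and neuroendocrine cancer, but no label says which TRAMP animal had which.

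TRAMP mice carry the early region of the SV40 virus under the rat probasin promoter, which is driven by androgen in the secretory epithelium of the prostate. The large T antigen binds the retinoblastoma proteins (Rb1, Rbl1 and Rbl2), which frees the E2F transcription factors that switch on genes of DNA replication, and it also binds and blocks p53. Many genes of mitosis are switched on later in the cell cycle through a different promoter element, the CHR, which is bound by the DREAM and MuvB complexes. A TRAMP prostate can hold non-invasive lesions, adenocarcinoma or neuroendocrine carcinoma, and whole-tissue RNA mixes these cells with stroma and with whatever neighbouring tissue was taken along. In such RNA, more cells of a type and more transcript per cell cannot be told apart.

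The transgene was read first. The 6 control probe sets of the arrays that are named for the SV40 genome had a mean log2 level of 7.02 at the lowest, 7.20 at the median and 7.70 at the highest of the 7 late TRAMP arrays, and of 5.002, 5.24 and 5.37 on the late wild-type arrays. The groups did not overlap, so that the transgene signal of all 13 arrays matched their genotype labels. The group means were 7.30 ± 0.27 (SD, n = 7) and 5.23 ± 0.14 (SD, n = 6), and their difference of 2.07 had a p of 0.000583 in a 2-sided exact permutation test, the smallest p that 1716 splits allow. The sources used here do not say which part of the SV40 genome these probe sets cover.

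One wild-type array, that of animal B6, stood apart from the other 12. Its correlation with them over the target probe sets ran from 0.803 to 0.867, while the correlations among the others ran from 0.947 to 0.985. The array's separation of positive from negative control probe sets, measured as the area under the curve (AUC), was 0.698, the lowest of the 13. AUC did not differ between the groups beyond their spread (0.731 ± 0.0187 in late TRAMP and 0.735 ± 0.0207 in late wild type, SD; 2-sided exact permutation p = 0.690). The main counts, and the values that B6 moves most, are given below with and without it. The median SD per probe set was 0.19 in late TRAMP and 0.26 in late wild type, or 0.16 in late wild type without B6.

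Called differences between late TRAMP and late wild type were mostly rises. In the limma fit, 140 of the 22206 probe sets (0.63%) had an adjusted p under 0.05 (Benjamini-Hochberg over all of them) and are called changed below. Of these, 136 were higher in late TRAMP (0.612%) and 4 were lower (0.018%), while the median difference of all tested probe sets was -0.00 (log2). A total of 41 called probe sets (0.185%) differed by at least 2-fold, all of them upwards. The wild-type mean of 33 of the rises lay below the median of the negative control probe sets, where RMA compresses differences. In 102 of the 140 the 2 groups had ranges apart, with no animal of one inside the range of the other. Over the whole array such separation upwards was seen for 170 probe sets (0.766%) and downwards for 22 (0.0991%), and an unadjusted p under 0.05 for 1223 upwards (5.51%) and 675 downwards (3.04%). Without B6 the fit called 127 rises (0.572%) and 15 falls (0.0675%), and separated ranges were then seen for 282 probe sets upwards (1.27%) and 78 downwards (0.351%). Without T7 it called 87 rises and 2 falls, on the 13 arrays alone 65 rises, and with 1 weight per array 539 rises and 250 falls. Of the 140 calls, 129 have a gene symbol and 11 have none in the annotation used here.

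Genes of chromosome duplication and division led the rises. The largest was Hells, a chromatin remodeller needed for DNA methylation, whose log2 level was 8.25 at the lowest, 8.60 at the median and 9.01 at the highest in late TRAMP against 5.499, 5.62 and 6.06 in late wild type. Every TRAMP animal lay more than the whole wild-type range above the highest wild-type animal, and the difference was 2.96 ± 0.28 (SE), or 7.79-fold (adjusted p = 2.77e-11). Ccne2, the cyclin E2 that drives entry into S phase, ran from 9.70 through a median of 10.21 to 10.39 in late TRAMP and from 5.995 through 7.80 to 8.08 in late wild type, where B6 was the low animal. Its groups were apart and differed by 2.57 ± 0.29 (SE; adjusted p = 2.474e-08), and by 2.25 without B6 (adjusted p = 2.124e-07). Pbk, a mitotic kinase, and Asf1b, a histone chaperone of replicating chromatin, differed by 2.67 and 2.30, and neither group overlapped the other for either gene.

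**Figure D1:**
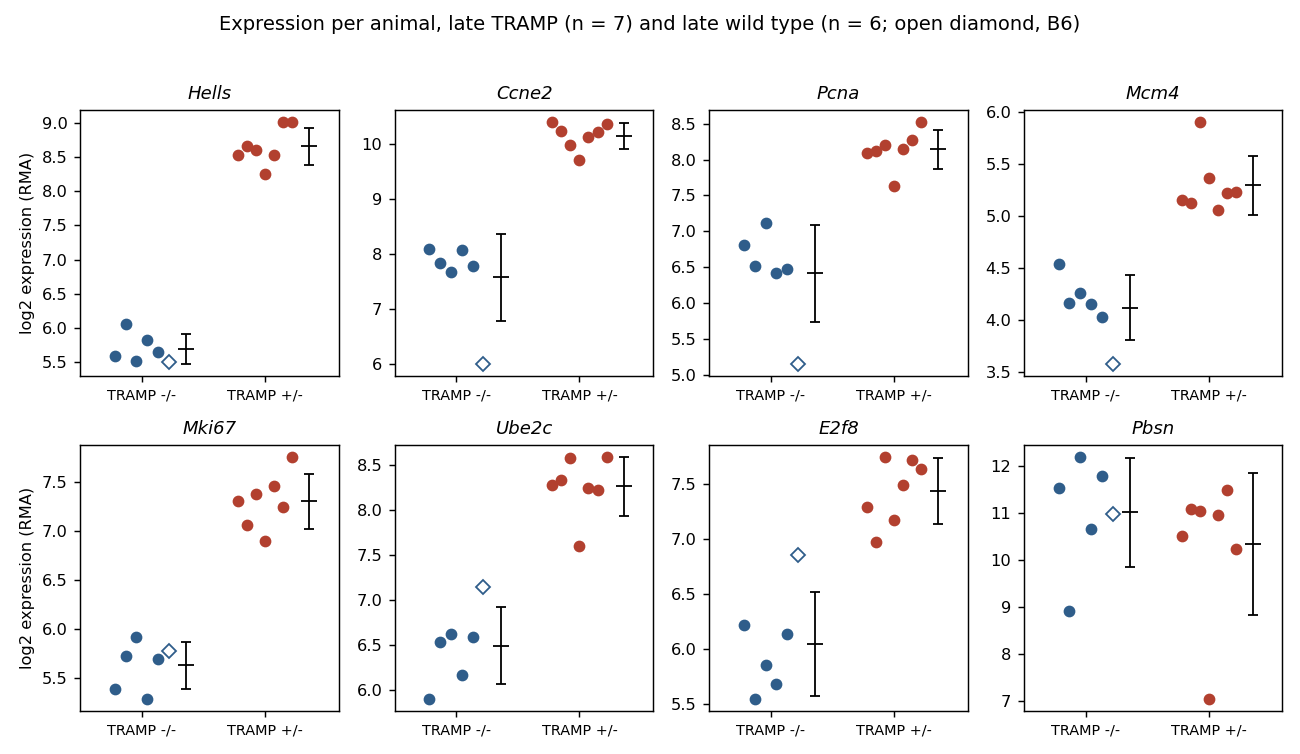
Log2 expression (RMA) of 8 genes in each animal, with late wild type (TRAMP -/-, n = 6, blue) and late TRAMP (TRAMP +/-, n = 7, red); each point is 1 animal, the open diamond is B6, and the black bars give the mean ± SD. For Hells the TRAMP animals lie between 8.25 and 9.01 and the wild-type animals between 5.499 and 6.06, while the ranges of the secretory gene Pbsn overlap.

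The genes nearest to the action of T antigen were taken from a list of 19 measured partners of the antigen and their regulators. Rises were called for 4 of them, Rbl1, E2f8, Tfdp1 and E2f3, and falls for 0, with a list median of 0.22 (log2) against -0.00 over all probe sets. E2f8, an atypical E2F that represses E2F targets late in S phase, ran from 6.97 through a median of 7.49 to 7.75 in late TRAMP and from 5.55 through 5.996 to 6.86 in late wild type. Those ranges did not overlap, and the difference was 1.38 ± 0.21 (SE; adjusted p = 2.411e-05). Tfdp1, the DNA-binding partner of the E2F proteins, differed by 0.92, Rbl1 (the p107 member of the retinoblastoma family) by 0.81, and E2f3 by 0.87, or 0.57 without B6 (adjusted p = 0.0064). Rbl1 lay low in the wild type, where 35.2% of the negative control probe sets had a lower mean level.

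The other members of that list gave no call in the main fit. With 1 weight per array, where 539 rises were called over all probe sets, E2f1, E2f2, E2f7 and Cdkn2a were called. Cdkn2a was also called without arrays of low quality. Rb1 differed by 0.09 (adjusted p = 0.879), Rbl2 by -0.07, E2f1 by 0.24, E2f2 by 0.48 (adjusted p = 0.387), E2f4 by 0.10, E2f5 by 0.01 and E2f7 by 0.22. B6 moved several of these. Without it E2f1 differed by 0.47 with ranges apart and no call (adjusted p = 0.478), and Rbl2, E2f4 and E2f5 differed by -0.37, -0.10 and -0.07. The inhibitors of cyclin-dependent kinases Cdkn1a, Cdkn1b, Cdkn2a and Cdkn2c differed by 0.22, 0.29, 0.15 and 0.18. Cdkn2a, which encodes p16Ink4a and p19Arf was at 6.26 in B6 against 4.17 to 4.63 in the other wild-type animals. Late TRAMP ran from 4.60 to 5.24, and without B6 the difference was 0.46 (adjusted p = 0.0624). The p53 regulators Mdm2 and Mdm4 differed by 0.00 and 0.09, the T antigen partner Cul7 by 0.22, and Ppp2r1a, the scaffold of the phosphatase that binds small t antigen, by -0.00. Of 17 measured p53 target genes 0 were called in either direction, with a median of 0.00. No named probe set was found for Trp53 itself.

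In the DNA replication list 12 of 30 measured genes were called higher and 0 lower, with a median of 0.47, and 26 of the 30 had a positive difference. The mean level of the list separated the animals completely, from 6.93 to 7.11 in late TRAMP and from 6.28 to 6.46 in late wild type. Pcna, the sliding clamp of the replicative polymerases, ran from 7.63 through a median of 8.14 to 8.53 in late TRAMP and from 5.15, the level of B6, through 6.49 to 7.11 in late wild type. Its groups were apart and differed by 1.73 ± 0.24 (SE; adjusted p = 5.298e-06), and by 1.48 without B6. Prim1, the catalytic subunit of primase, varied little within either group (SD 0.11 and 0.14) and differed by 1.70. Of the subunits of the MCM helicase that unwinds the origin, Mcm4, Mcm6, Mcm2 and Mcm5 were called with differences of 1.17, 1.13, 1.03 and 0.54, while Mcm3 differed by 0.48 (adjusted p = 0.110). Mcm4 lay near the array's background in the wild type, where 27.7% of negative control probe sets were lower. The ligase Lig1, the polymerase subunit Pola1, the cyclin Ccne1, the helicase loader Cdc6 and the thymidylate synthase Tyms made up the rest of the calls, with differences of 1.11, 1.10, 1.02, 0.83 and 0.58. Without B6 the list held 11 calls, as Tyms lost its call (adjusted p = 0.0617).

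The replication list did not move as a block. Several genes that peak in the same phase differed by very little, and these were singled out after their values were seen. Rrm2, a subunit of ribonucleotide reductase, was at 6.74 ± 0.22 (SD, n = 7) in late TRAMP and 6.76 ± 0.30 (SD, n = 6) in late wild type. Tk1, a thymidine kinase, was at 8.20 and 8.16, Cdc45, part of the active helicase, at 6.84 and 6.79, and Mcm10 at 7.64 and 7.70. For these 4 genes the difference was smaller than the SD within either group, with adjusted p from 0.944 to 0.992. Beside them, 5 of 8 genes of the DNA polymerase alpha-primase and epsilon complexes were called higher, a family chosen after the data were seen, with a median of 0.74. Of its genes outside the list, Pola2, Pole2 and Prim2 differed by 0.80, 0.75 and 0.73. Pole, the catalytic subunit of polymerase epsilon and a member of the list, differed by 0.07.

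The chromatin list gave 4 calls among 18 measured genes and 0 falls, with a median of 0.17. Besides Hells and Asf1b these were Hmgb2, a DNA-bending protein of dividing cells, and Dnmt1, the maintenance DNA methyltransferase, with differences of 1.28 and 0.56. The list's mean level ran from 7.31 to 7.53 in late TRAMP and from 6.60 to 7.01 in late wild type, B6 being the lowest. Without B6 the list held 6 calls, the additional ones being Uhrf1, which guides Dnmt1 to replicated DNA, at 0.53 (adjusted p = 0.00202), and Chaf1b, a subunit of chromatin assembly factor 1, at 0.58. Ezh2, the methyltransferase of Polycomb complex 2, differed by 0.36 (adjusted p = 0.525).

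**Figure D2:**
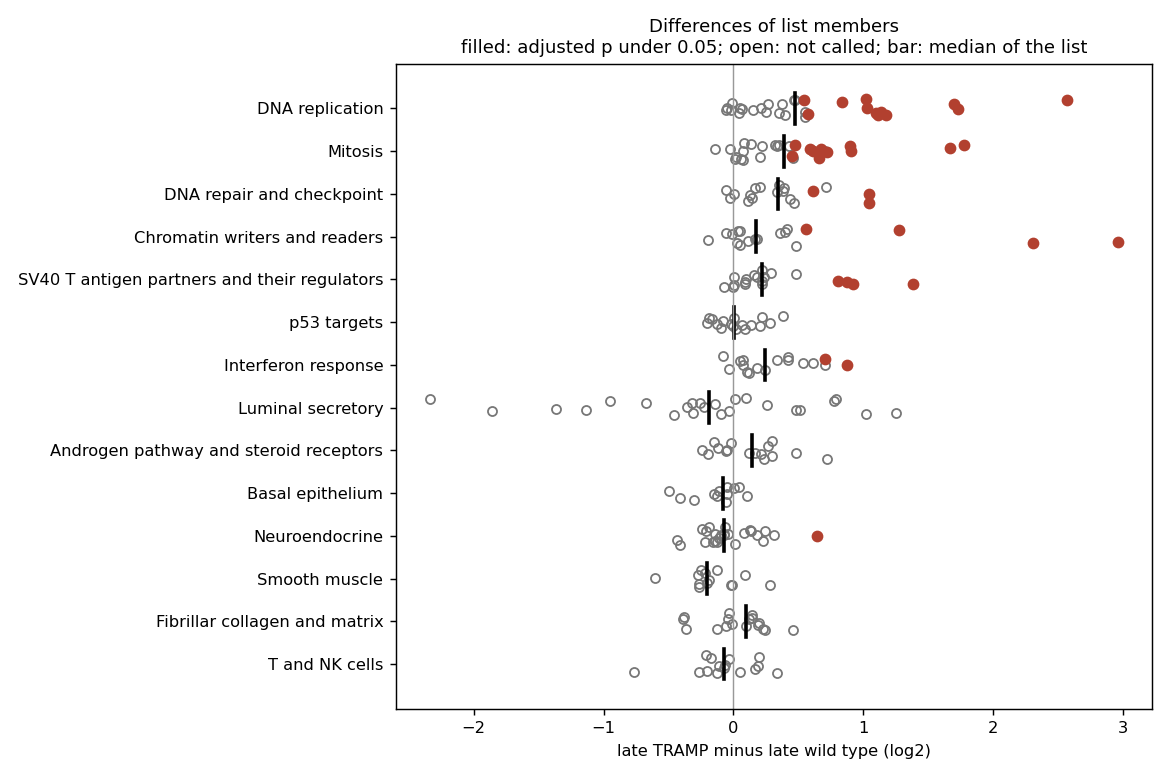
Difference between late TRAMP and late wild type (log2) of every measured member of 14 gene lists; filled points are called at an adjusted p under 0.05, open points are not, and black bars mark the median of a list. The filled points lie in the replication, mitosis, repair, chromatin, T antigen and interferon lists, with 1 in the neuroendocrine list, and the luminal secretory genes spread from -2.33 to 1.25 with no call.

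In the Mitosis list 11 of 28 measured genes were called higher and 0 lower, with a median of 0.39. The list's mean level ran from 6.11 to 6.36 in late TRAMP and from 5.66 to 5.91 in late wild type, with no overlap. Here B6 was the highest wild-type animal, and the others reached 5.74. Ube2c, the ubiquitin-conjugating enzyme of the anaphase-promoting complex, ran from 7.60 through a median of 8.28 to 8.59 in late TRAMP and from 5.90 through 6.56 to 7.15 in late wild type. The ranges did not overlap and the difference was 1.77 ± 0.23 (SE; adjusted p = 3.885e-07). Mki67, the Ki-67 proliferation marker, ran from 6.90 through 7.30 to 7.76 and from 5.29 through 5.71 to 5.92, again without overlap, and differed by 1.67 ± 0.23 (SE). The cyclin Ccna2, the spindle midzone protein Prc1, the kinases Plk1, Cdk1 and Nek2, the anaphase activator Cdc20, the spindle factor Tpx2 and the kinetochore proteins Cenpe and Cenpf were called with differences from 0.45 to 0.91. Without B6 the list again held 11 calls, with Cenpa gained and Cenpe lost (adjusted p = 0.144).

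Mitotic members were uneven as well. Top2a, the topoisomerase that untangles sister chromatids, was at 6.08 ± 0.23 (SD, n = 7) in late TRAMP and 6.08 ± 0.20 (SD, n = 6) in late wild type. Aurkb, a kinase of the chromosomal passenger complex, was at 6.87 and 6.80, the spindle motor Kif11 at 4.71 and 4.85, and the checkpoint protein Bub1b at 4.05 and 4.07. These 4 were singled out after their values were seen, and Kif11 and Bub1b lay low on the array, with 40.3% and 26.9% of negative control probe sets below their wild-type mean. In families chosen after the data were seen, 4 of 8 condensin subunits were called higher with a median of 0.70, led by Smc4 at 1.88, Ncapg2 at 1.81 and Ncapg at 1.27. Of the centromere proteins named Cenp 6 of 20 were called higher, led by Cenpm at 0.99, and of the kinesins 4 of 34, led by Kif23, a motor of cytokinesis, at 1.22. Smc4 lost its call without B1 (adjusted p = 0.0593).

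Histone genes were also among the rises, with 8 of 57 called higher and 0 lower and a median of 0.21, again as a family chosen after the data were seen. H2bc18 ran from 5.91 through a median of 6.41 to 7.05 in late TRAMP and from 4.49 through 4.72 to 5.04 in late wild type, without overlap, and differed by 1.70 ± 0.25 (SE; adjusted p = 9.194e-06). Its wild-type mean was near the array's background, with 38.3% of negative control probe sets below it. H2bc12 and H2bc14 differed by 1.08 and 1.05. H3c14 and H3c15 had the same values on every array and count as 1 measurement. Histone genes are near-identical copies of each other, so that the array may not tell single members apart. Without B6 the family held 13 calls.

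Genes of DNA repair and checkpoint control gave 3 calls among 18 measured genes and 0 falls, with a median of 0.34. Brca2, which loads the recombinase at broken forks, ran from 7.41 through a median of 8.15 to 8.47 in late TRAMP and from 6.82 through 7.03 to 7.28 in late wild type. The groups were apart and differed by 1.05 ± 0.18 (SE; adjusted p = 0.000391). Rad51ap1, a partner of the same recombinase, differed by 1.04, with 6 of 7 TRAMP animals above the highest wild-type animal, and the nuclease Exo1 by 0.61. The checkpoint kinases Chek1, Chek2 and Atr differed by 0.35, 0.11 and 0.00 with no call. Without B6 the list held 4 calls, as Clspn, a mediator of the replication checkpoint, was called at 0.46 (adjusted p = 0.0193). Ranges were then apart upwards for 7 of its 18 genes, against 3 with B6. Over all probe sets the share with ranges apart upwards was also larger without B6, at 1.27% against 0.766%.

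The promoters of the called genes were read from RefSeq windows of 250 bases before to 50 bases after each gene's start (assembly GRCm38.p6). An E2F site was searched on both strands as TTTCCCGC, TTTGGCGC, TTTCGCGC or TTTGCCGC, which may overlap each other. It was present for 11 of 24 DNA replication genes with a window (45.8%), 25 of 109 genes called higher (22.9%) and 531 of 15691 genes tested on the arrays (3.38%), but for 4.17% of the Mitosis list. Of the 10 called DNA replication genes with a window, 5 held a site. The stretches below belong to called members of the replication, chromatin and T antigen lists in which a site was found. Not every such member is shown, and the E2F letters are in capitals on either strand.

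Hells (chr19:38930902-38930961, plus strand): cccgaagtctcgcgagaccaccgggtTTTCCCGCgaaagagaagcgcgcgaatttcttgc
Mcm6 (chr1:128359719-128359778, minus strand): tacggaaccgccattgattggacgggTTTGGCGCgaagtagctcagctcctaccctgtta
Mcm5 (chr8:75109334-75109393, plus strand): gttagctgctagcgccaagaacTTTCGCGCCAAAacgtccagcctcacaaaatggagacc
Cdc6 (chr11:98907987-98908046, plus strand): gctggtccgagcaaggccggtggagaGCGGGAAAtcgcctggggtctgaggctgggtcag
Rbl1 (chr2:157204535-157204594, minus strand): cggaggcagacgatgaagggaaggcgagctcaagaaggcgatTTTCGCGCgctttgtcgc
Tfdp1 (chr8:13338682-13338741, plus strand): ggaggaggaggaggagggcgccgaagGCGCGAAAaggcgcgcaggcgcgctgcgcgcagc

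In the stretch of Mcm5 a pair of sites overlap on opposite strands. A different element was frequent among the mitotic genes. The CHR element, searched as TTTGAA on both strands, was present for 17 of 24 Mitosis genes with a window (70.8%), including 7 of the 9 called ones, against 17.8% of the genes tested and 16.7% of the DNA replication list. A run of 6 letters is frequent by its length alone, as that background shows. Of all genes called higher, 35 of 109 held the CHR element (32.1%). E2f8, E2f3, Asf1b and Hmgb2, which are outside the Mitosis list, were among them. Cdk1 also held an E2F site, 131 bases before its start. The next stretches are shown for called members of the Mitosis list with the CHR element before the start, its letters in capitals.

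Mki67 (chr7:135716444-135716503, minus strand): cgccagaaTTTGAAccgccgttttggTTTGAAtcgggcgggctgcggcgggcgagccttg
Ube2c (chr2:164769869-164769928, plus strand): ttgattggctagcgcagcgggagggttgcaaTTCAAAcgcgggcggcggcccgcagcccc
Prc1 (chr7:80294416-80294475, plus strand): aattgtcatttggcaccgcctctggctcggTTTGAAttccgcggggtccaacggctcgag
Cdk1 (chr10:69352913-69352972, minus strand): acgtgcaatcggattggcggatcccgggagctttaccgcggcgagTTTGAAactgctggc
Cdc20 (chr4:118437344-118437403, minus strand): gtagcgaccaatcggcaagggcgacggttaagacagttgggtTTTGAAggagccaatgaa

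The element lay 15 to 30 bases before the start in Ube2c, Prc1, Cdk1 and Cdc20. A match describes these letters only and is not a bound site, and the arrays carry no binding data.

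Outside the cell cycle, in the Interferon response list 2 of 17 measured genes were called higher and 0 lower, with a median of 0.25, or 0.11 without B6. Usp18, a protease that removes the ISG15 tag and dampens interferon signalling, ran from 7.14 through a median of 7.70 to 7.81 in late TRAMP and from 6.08 through 6.81 to 6.97 in late wild type. The groups were apart and differed by 0.88 ± 0.18 (SE; adjusted p = 0.00426), or 0.75 without B6. Irf7, the interferon regulatory factor that amplifies type I interferon, differed by 0.71, with 6 of 7 TRAMP animals above the wild-type range and a wild-type level above only 27.6% of negative control probe sets. Classical responders gave no call, as Ifit1, Mx1, Rsad2 and Cxcl10 differed by 0.18, 0.07, -0.03 and 0.07.

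A few called genes outside the list that interferon is known to induce, or that act in its signalling or in antigen presentation, are named after their values were seen. Herc6, a ubiquitin-family ligase induced by interferon, differed by 1.04 with ranges apart, and by 0.95 with no call without B6 (adjusted p = 0.0555). Irf9, the DNA-binding part of the ISGF3 complex, ran from 8.31 through a median of 8.58 to 8.65 in late TRAMP and from 7.23 through 7.77 to 7.87 in late wild type, without overlap, and differed by 0.84. The MHC class I heavy chain H2-K1 differed by 0.88, or 0.61 without B6, and Tapbp, which loads peptides onto class I, by 0.42, with no call without B6 (adjusted p = 0.301). Of 27 MHC class I and peptide-loading genes, these 2 were the calls, with a median of 0.03. Ulbp1, a ligand of the NKG2D receptor on natural killer cells, differed by 1.37 with ranges apart. The lists of lymphocyte, macrophage, neutrophil and mast cell genes held 0 called genes, and the mean level of the list for T and natural killer cells ran from 5.67 to 5.79 in late TRAMP and from 5.68 to 5.95 in late wild type.

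Some of the larger rises belonged to no list, and those named next share no tested theme. Fxyd3, a regulator of the sodium pump found in epithelia, ran from 9.55 through a median of 9.75 to 10.71 in late TRAMP and from 6.51, the level of B6, through 8.34 to 9.09 in late wild type. The groups were apart and differed by 1.75 ± 0.31 (SE; adjusted p = 0.000436), or 1.43 without B6. B4galnt2, a glycosyltransferase of the Sda antigen, differed by 1.53, and the aminopeptidase Anpep by 1.06, both with ranges apart. The tetraspanin Tspan8 differed by 1.51 with overlapping ranges and had no call without B6 (adjusted p = 0.104), although 6 of 7 TRAMP animals lay above the highest wild-type animal. Stmn1, a microtubule-destabilising protein, had ranges apart and a difference of 2.15 (adjusted p = 0.0488), which became 1.67 with no call without B6 (adjusted p = 0.250). B6 lay at 5.20 for Stmn1, against a wild-type median of 8.17. Lists of luminal keratins and epithelial adhesion and of prostate lineage transcription factors held 0 calls, and Grhl2, an epithelial transcription factor, differed by 0.84 (adjusted p = 0.0621).

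The secretory programme of the luminal cell, which the transgene's own promoter belongs to, gave 0 calls among 24 measured genes, with a median of -0.19, although 5 were called lower in a fit with 1 weight per array. Pbsn, the mouse probasin gene, ran from 7.04 through a median of 10.95 to 11.49 in late TRAMP and from 8.91 through 11.25 to 12.19 in late wild type. The ranges overlapped, T4 was far below the other TRAMP animals, and the difference was -0.67 ± 0.49 (SE; adjusted p = 0.778). Tgm4, the transglutaminase of the coagulating plug, was at 8.86 in T4 and at a median of 12.06 in late TRAMP and 12.55 in late wild type, and differed by -0.36. Both genes were bright in both groups, with 99.6% and 99.4% of negative control probe sets below the wild-type and TRAMP means of Tgm4 and 99.0% and 98.4% below those of Pbsn, so that both groups carried the markers of prostate epithelium. The widest differences of the list were negative and not called. Spink1, a secreted protease inhibitor, differed by -2.33 ± 0.97 (SE; adjusted p = 0.425), Sbpl by -1.86, Sbp (a spermine-binding protein) by -1.37 and Wfdc3 by -1.13, with SDs of 1.87, 2.20, 1.87 and 1.18 in late wild type. Without B6 Spink1 differed by -2.99 (adjusted p = 0.2415) and Sbp by -1.81 (adjusted p = 0.2996), again with no call. Msmb and Apof lay on the other side, at 1.02 and 1.25, also with no call, or at 0.66 and 1.08 without B6. The mean level of the list ran from 7.98 to 8.67 in late TRAMP and from 7.36, the level of B6, to 8.96 in late wild type. Without B6 the wild type began at 8.496, and 6 of the 7 TRAMP animals then lay below it, at 8.39 or less, while T3 lay inside its range. The median difference of the list was then -0.27.

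**Figure D3:**
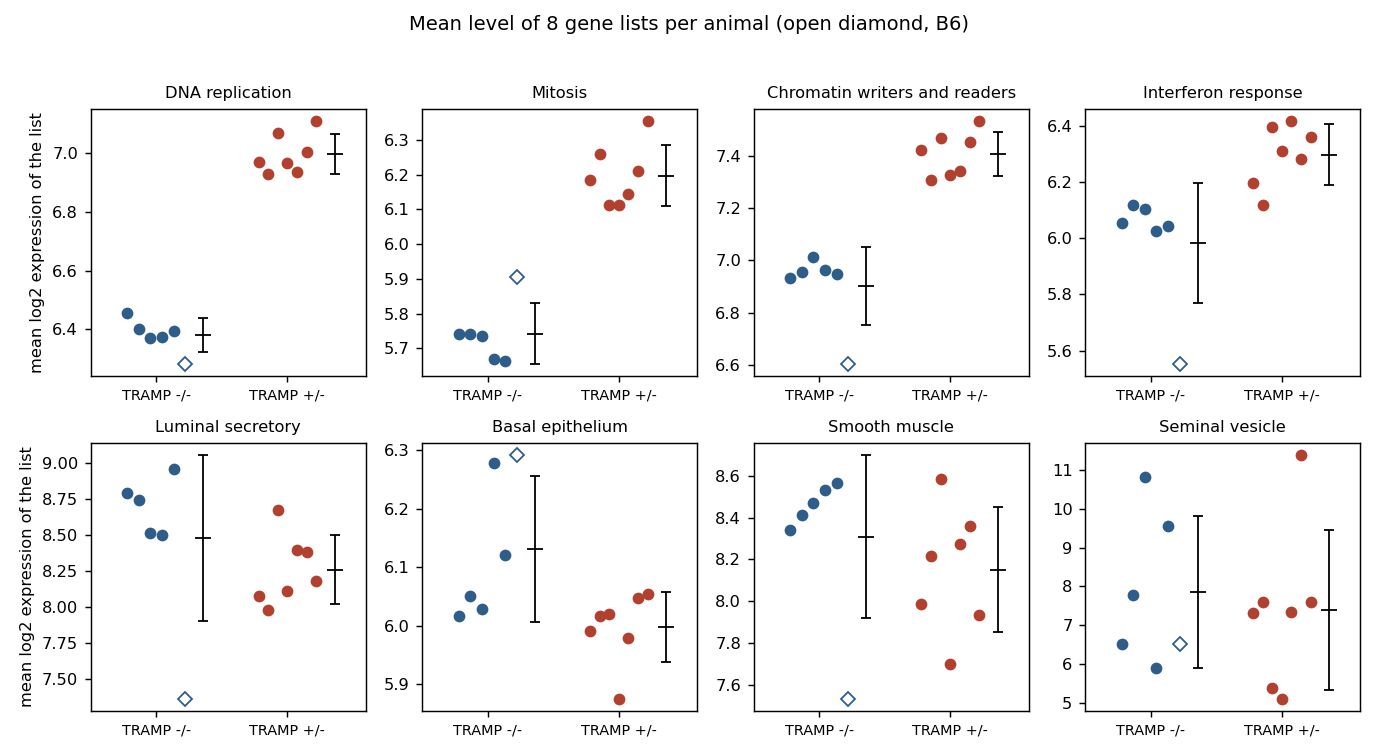
Mean log2 expression of 8 gene lists in each animal (late wild type, n = 6, blue; late TRAMP, n = 7, red; open diamond, B6; black bars, mean ± SD). DNA replication, Mitosis and chromatin lists separate the groups, whereas the luminal secretory, smooth muscle and seminal vesicle lists overlap and B6 lies lowest in the first 2 of these. Without B6, 6 of 7 TRAMP animals lie below the wild-type range of the luminal secretory list.

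The rest of the secretory list was in between. The defensin Defb50 differed by 0.78 with 5 of 7 TRAMP animals above the wild-type range, and Pigr, the receptor that carries IgA across the epithelium, by 0.79. Clu, Mme, Tspan1, Cldn8 and Crabp1 differed by 0.51, 0.48, 0.26, 0.10 and 0.02, while Pate4, Wfdc15b, Azgp1, Gsdma, Agr2, Ceacam10, Plac8, Acpp and Wfdc2 differed by -0.95, -0.46, -0.32, -0.31, -0.26, -0.23, -0.14, -0.09 and -0.03. The lowest adjusted p among these was 0.499, of Defb50. Without B6 Wfdc15b differed by -1.15, with ranges apart downwards and no call (adjusted p = 0.739), Pate4 by -1.38, Azgp1 by -0.57, Plac8 by -0.52 and Ceacam10 by -0.42. Pigr, Defb50, Mme and Tspan1 then differed by 0.41, 0.49, 0.22 and 0.07. Without B6 the sign of Cldn8 turned, to -0.11, and without T4 that of Tgm4, to 0.12. In the promoter windows the androgen half-site AGAACA was present for 7 of 16 Luminal secretory genes (43.8%) against 18.4% of genes tested.

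Genes of androgen signalling also gave 0 calls, among 16 measured, with a median of 0.14, or 0.05 without B6. Ncoa4, a nuclear receptor coactivator and a receptor for ferritin, had ranges apart, from 9.38 through a median of 9.58 to 9.90 in late TRAMP and from 7.83 through 9.06 to 9.31 in late wild type. Its difference of 0.72 had an adjusted p of 0.0851, and 0.430 without B6. Ncoa4 was called in 3 alternative settings, with 1 weight per array, with array quality as a covariate and after a repeated quantile normalization. The androgen targets Fkbp5, Tmprss2, Abcc4, Slc45a3, Zbtb16 and Homer2 differed by 0.48, -0.12, 0.24, 0.16, 0.29 and 0.22. Fkbp5 was at 5.97 in B6 against a wild-type median of 8.99, and differed by -0.04 without B6. Zbtb16, Abcc4, Slc45a3 and Tmprss2 then differed by 0.06, 0.09, 0.08 and -0.30. The coactivators Ncoa1 and Ncoa2 differed by 0.12 and -0.05, the receptors Nr3c1, Esr1, Esr2, Pgr, Nr2f1 and Nr2f2 by -0.24, -0.15, -0.20, 0.26, -0.05 and 0.30, and the steroid dehydrogenase Hsd17b4 by -0.02. Without B6 the signs of Ncoa2 and Esr1 turned, to 0.03 and 0.04, and Nr3c1 and Nr2f2 differed by -0.11 and 0.10.

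Markers of neuroendocrine and basal cells were read next. In the neuroendocrine list 1 of 25 measured genes was called, Cadps, which primes dense-core vesicles for release, at 0.65 ± 0.16 (SE; adjusted p = 0.0384). Its ranges were 5.96 to 7.32 in late TRAMP and 5.39 to 5.94 in late wild type, and its call was lost without T2, T5, T7, B1, B2, B3 or B4. Chga, Syp, Ncam1 and Insm1, the defining markers of neuroendocrine carcinoma, differed by -0.14, -0.11, -0.08 and -0.24, at late TRAMP levels of 6.01, 6.20, 4.54 and 5.08. In the basal list 0 of 12 genes were called and 9 differences were negative, 3 of them with an unadjusted p under 0.05, with Trp63 at -0.50, Krt5 at -0.41 and Krt14 at 0.04. Without B6, in which Trp63 was lowest at 5.12, Trp63 was called lower by -0.77 ± 0.17 (SE; adjusted p = 0.00916). Late TRAMP ran from 5.63 to 6.26 and the other 5 wild-type animals from 6.23 to 7.84, with a narrow overlap. B4 was the highest of these at 7.84, and the next was B2 at 6.62. Trp63 was the only member called without B6. The median of the basal list was -0.08 with B6 and 0.00 without it, so the list as a whole did not fall there. On the SPARC-null background Trp63 was called lower as well, by -0.80 (adjusted p = 0.0312).

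Stroma and matrix held 0 calls in every list examined, namely fibrillar collagen, basement membrane, matricellular proteins, proteases, fibroblasts, smooth muscle and endothelium. The smooth muscle list had a median of -0.20 with 11 of 13 differences negative, and a mean level from 7.70 to 8.58 in late TRAMP and from 7.54, the level of B6, to 8.56 in late wild type. Without B6 its median was -0.37, the wild type ran from 8.34, and 1 of 13 members had ranges apart downwards, against 0.351% of all probe sets. Sparc differed by -0.32 ± 0.17 (SE; adjusted p = 0.615), with ranges of 6.30 to 7.21 and 6.36 to 7.56 that overlapped. B6 was the highest wild-type animal for Sparc, and without it the wild type reached 7.02 and the difference was -0.18 (adjusted p = 0.945). No named probe set was found for Spp1. Seminal vesicle genes, which mark tissue outside the prostate, varied widely within both groups, with a list mean from 5.11 to 11.38 in late TRAMP and from 5.91 to 10.83 in late wild type. Skeletal muscle genes ran from 6.63 to 8.61 and from 6.52 to 8.35, and urothelial genes reached 8.20 in B4 against at most 7.38 in all other animals. With the seminal vesicle score as a covariate the fit called 142 rises, of which 134 were among the 136. Of the 42 lists drawn up for this comparison, 35 held 0 called genes, and no list held a called fall.

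Only 4 probe sets fell. Pi15, a secreted protease inhibitor, ran from 4.38 through a median of 4.91 to 5.06 in late TRAMP and from 5.20 through 5.52 to 5.86 in late wild type, without overlap, and differed by -0.68 ± 0.16 (SE; adjusted p = 0.0123). Pi15 lay near the array's background, with 52.1% of negative control probe sets below its wild-type mean and 40.1% below its TRAMP mean. Myo3b, an unconventional myosin with a kinase domain, differed by -0.44 (adjusted p = 0.0459) with ranges apart and had no call without B6 (adjusted p = 0.136). Pttg1 encodes securin, which holds sister chromatids together until anaphase. Unlike the called mitotic genes it was lower in late TRAMP, from 7.41 through a median of 7.66 to 8.03 against 7.78 through 8.20 to 8.71, with overlapping ranges, a difference of -0.56 ± 0.15 (SE; adjusted p = 0.0489) and no call without B6 (adjusted p = 0.197). The remaining fall, of -0.47, has no gene symbol in the annotation used here. Without B6, 13 further falls were called, led among named genes by Clca3a2 at -1.26 and Kcna6 at -1.07, with Selp (P-selectin of endothelium and platelets) at -0.93, while Pi15 and the unnamed probe set kept their calls.

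**Figure D4:**
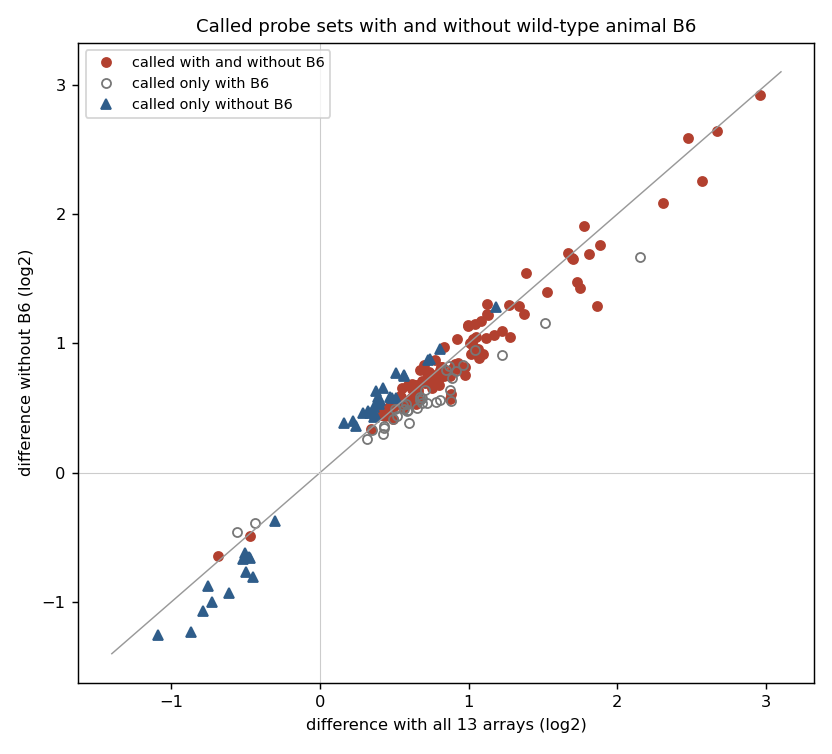
Difference between late TRAMP and late wild type (log2) with all 13 arrays (x axis) and without B6 (y axis) for probe sets called in either fit; the grey line marks equal values. Of the points, 104 are called in both fits (red), 36 only with B6 (open) and 38 only without it (triangles), and 13 of these last are falls.

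The same rises were followed at 16 weeks, in animals that share no array with the late groups. There 7 probe sets were called higher (0.0315%) and 1 lower (0.0045%), and all 7 of the rises were among the 136 late ones, or 5.15% of them. They were Hells, Ccne2, Olfr167, Mki67, Ube2c, Cdc6 and Casp2. Hells differed by 2.50 at 16 weeks and 2.96 late, Ccne2 by 2.03 and 2.57, and Mki67 by 1.35 and 1.67. Over the 136 rises the median difference was 0.80 late and 0.43 early, and 133 were positive early. The late test chose these rises, which favours large late values, so the 2 medians do not show a larger late response. The share of all probe sets that were positive early was not counted. The late difference was tested against the early one for every probe set, and 0 were called (0%; smallest adjusted p = 0.852), with 1095 at an unadjusted p under 0.05. No probe set is therefore shown to respond differently at the 2 ages, with 4 wild-type animals at 16 weeks.

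On the SPARC-null background the late transgene difference was again mostly upwards, with 202 rises (0.91%) and 80 falls (0.36%). Of the 136 rises 91 were also called there, which is 66.9% of the late wild-type-background rises and 45.05% of the 202, and 132 were positive. Their median difference there was 0.78, against a late median of 0.80 that the choice by the late test favours. The share of all probe sets that were positive on the SPARC-null background was not counted. Hells differed by 2.97, Mki67 by 2.19 and E2f8 by 1.93 on the SPARC-null background, against 2.96, 1.67 and 1.38. E2f3, Irf9 and Stmn1 had no call there, with differences of 0.28, 0.47 and 1.51. Pttg1 differed by 0.40 there with no call, opposite in sign to its -0.56. The secretory genes Spink1, Sbpl and Wfdc3 were called lower on the SPARC-null background, at -3.92, -3.00 and -2.15. When the 2 late differences were tested against each other 0 probe sets were called (0%; smallest adjusted p = 0.838), with 993 at an unadjusted p under 0.05, so that none of these contrasts between backgrounds is shown to differ.

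**Figure D5:**
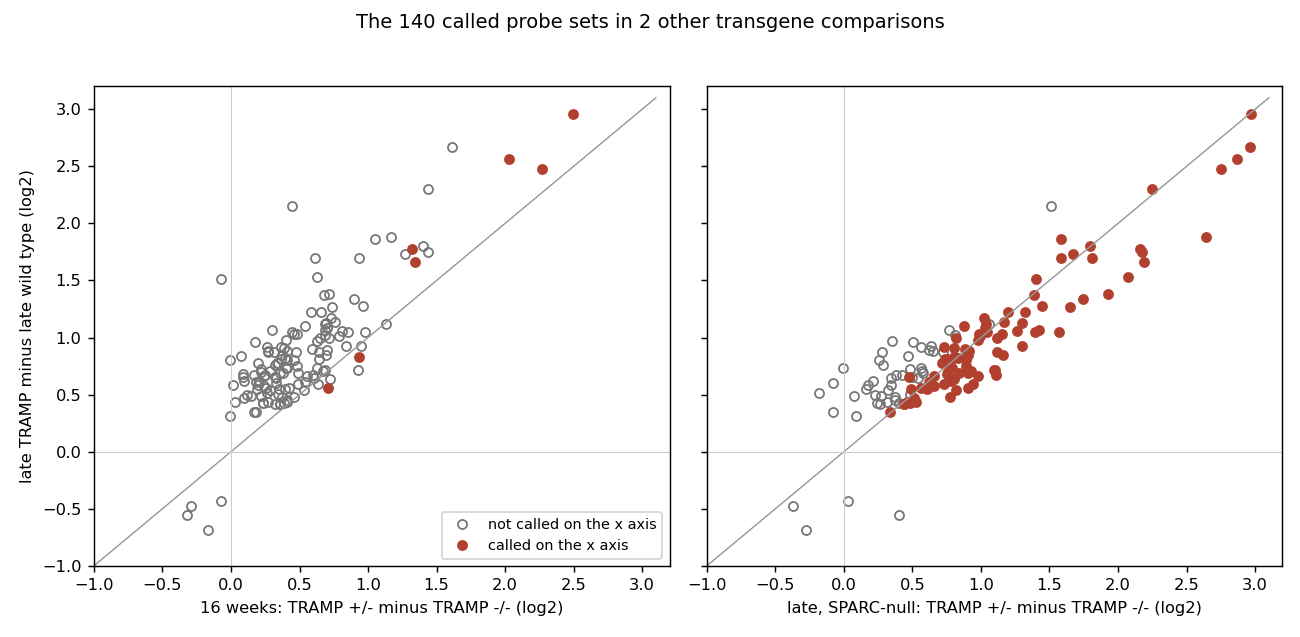
Late TRAMP minus late wild type (y axis, log2) of the 140 called probe sets against the transgene difference at 16 weeks (left x axis) and late on the SPARC-null background (right x axis); red points are called on the x axis and the grey line marks equal values. Most points lie above the line on the left, where the median of the rises is 0.43, and around it on the right, where it is 0.78. The probe sets were chosen by the test on the y axis, which favours large values there.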

How the data were processed

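Total RNA was hybridised to Clariom S arrays, 1 array per animal. The deposited table holds log2 values that the authors made with RMA in the oligo package, per the submitters' processing notes, and the sources used here give no versions. RMA compresses differences of dim probe sets, and its quantile step assumes that most probe sets do not shift one way. Of 29129 probe sets, 6923 controls were set aside and 22206 tested with no filter, of which 19572 carry 1 gene symbol. No source used here names the genome build of the platform's annotation, so a RefSeq gene table (GRCm38.p6) served for names and neighbours, and promoter sequences are RefSeq's of that assembly.

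Group means of 67 arrays in 12 groups were fitted with limma 3.58.1 in R 4.3.3 (lmFit, eBayes), with weights by transgene status from arrayWeights (1.11 transgenic, 0.87 non-transgenic). Array O12 was left out because its genotype label and animal code conflict. P-values are 2-sided, with Benjamini-Hochberg adjustment over all 22206 probe sets. The script was tested on simulated data. P-values rest on the spread between animals, and their number limits the precision. The comparison, its lists of genes and the rule for naming were chosen with earlier results of these data known. Named genes were Sparc, Spp1, Pbsn, Trp53, Rb1, Cdkn2a and Mki67, the 15 largest called changes each way with 1 symbol, up to 4 called genes each way per list, and all members of the T antigen, androgen and luminal secretory lists. Other genes are named after their values were seen. A further gene of the rule is not reported here.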

Additional observations from a re-analysis of the deposited data

Results flagged for a closer look

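For 32 of 182 sets of values, 1 for each group and each named gene or array measure (SV40 level and AUC), 1 animal lay far from the others of its group by Dixon's criterion, which chance alone meets in about 1 of 20 groups. Of these, 17 were values of B6, the array that stood apart over all probe sets. Among the T antigen partners and cell-cycle genes B6 was low for Ccne2 at 5.995 (median of the other wild-type animals 7.84), Pcna at 5.15 (6.51), Hmgb2 at 5.998 (7.29), E2f3 at 5.05 (6.90), E2f4 at 6.06 (7.25), Tfdp1 at 7.88 (8.58) and Rbl2 at 7.57 (9.29), and high for Cdkn2a at 6.26 (4.52) and E2f1 at 6.87 (5.44). Among secretory and androgen genes it was low for Wfdc15b at 5.82 (9.90), Azgp1 at 7.99 (9.48), Mme at 4.80 (6.34), Slc45a3 at 5.10 (5.60), Ncoa4 at 7.83 (9.07) and Nr2f2 at 6.16 (7.34), and high for Nr3c1 at 5.83 (5.05) and Esr1 at 7.04 (5.92).

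The other 15 values were spread over 8 animals. T4 was low for the secretory genes Pbsn at 7.04 (median of the other TRAMP animals 10.99) and Tgm4 at 8.86 (12.06), for Ube2c at 7.60 (8.31) and for Rbl2 at 8.40 (9.08). T3 was high for Mcm4 at 5.91 (5.19), Slc45a3 at 5.96 (5.66) and Nr2f2 at 7.91 (7.39), and low for Wfdc2 at 5.59 (6.11) and Ncoa2 at 6.67 (7.20). T5 was low for Asf1b at 9.93 (10.80), T1 for Hsd17b4 at 5.63 (6.14), T6 was high for Ceacam10 at 10.31 (7.31) and T7 for Mdm2 at 6.26 (5.85). In the wild type B1 was high for Cdkn2c at 7.34 (6.38) and B4 low for Cadps at 5.39 (5.86). The cause of these values was not tested.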

How the results depend on the processing

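The 24 alternative settings changed the number of calls more than the direction of the named genes. With the 13 arrays alone, 68 probe sets were called, 65 of them higher (60 of these among the 136 rises). With 1 weight per array 789 were called, 539 higher and 250 lower, 71 by at least 2-fold, and the test against the SPARC-null background called 24. With array quality as a covariate 378 were called, 320 higher and 58 lower, 62 by at least 2-fold, and that test called 1. Without arrays of low quality 230 were called, 36 of them lower. Calls lower numbered 8 with no weights, 10 after a repeated quantile normalization and 9 after median centring. The cause of these shifts was not tested.

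With each animal left out in turn, calls ranged from 89 (without T7) to 143 (without T4), rises from 87 to 136, changes of at least 2-fold from 34 to 46, and falls from 1 to 15. Falls numbered 1 without T1, T2 or T6, 2 without T7, 7 without T4 or B1, 10 without T3 and 15 without B6. The SV40 difference ranged from 2.01 to 2.12, that of AUC from -0.0118 to 0.000944 (without B5, turned in sign), and both tests of a difference between differences from 0 to 0.

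Of 33 called named genes 22 kept their call in every alternative that tested them. The alternative that left out probe sets with a mean below the negative control median did not test Mcm4 and Rad51ap1. Calls were lost in 15 alternatives for Pttg1, 13 for Stmn1, 11 for Myo3b, 9 for Cadps, 4 for Pi15 and 2 for Rbl1. Of 56 named genes without a call, 16 changed sign in some alternative and 11 were called in some. No paired analysis was possible because each code names a separate animal. Array signal near that of the negative controls limits dim genes such as Mcm4, Exo1 and Irf7.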

Other observations

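Olfr167, an olfactory receptor gene, was the fourth largest named rise, and no gene list of this comparison holds it. Its log2 level ran from 8.06 through a median of 8.35 to 8.92 in late TRAMP and from 5.48 through 5.96 to 6.53 in late wild type, without overlap. The difference was 2.47 late, 2.27 at 16 weeks and 2.75 late on the SPARC-null background, each called by limma (adjusted p = 2.792e-08, 3.197e-05 and 1.496e-08). Of the 20 measured genes that neighbour it in the RefSeq table of GRCm38.p6, 10 on each side on chromosome 16, 0 were called, with a median difference of -0.01. On one side the 4 nearest, Olfr168, Olfr169, Olfr170 and Olfr171, had differences of 0.57, 0.51, 0.20 and 0.73, and those of 16 weeks were 0.65, 0.64, 0.33 and 0.83. On the other side Olfr166, Olfr165 and Olfr164 differed by 0.00, -0.11 and -0.02. Olfr171 was called without B6 at 0.87 (adjusted p = 0.0370), and on the SPARC-null background Olfr169 was called at 0.80 (adjusted p = 0.00339) and Lamp3, a neighbour that is no olfactory receptor gene, at 0.51 (adjusted p = 0.0479). Whether probes of these related receptor genes read each other's transcripts was not tested.

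Falls outside the lists appeared without B6, and these genes were singled out after their values were seen. Tmem132c differed by -0.998, Osr1, a transcription factor of urogenital mesenchyme, by -0.88, Pappa, a protease that releases insulin-like growth factors, by -0.67 and Ces1d, a carboxylesterase, by -0.62. For Tmem132c the TRAMP animals lay between 7.64 and 8.62 and the wild-type animals other than B6 between 8.69 and 9.32, without overlap, while B6 was at 7.37.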
